A study of Homo sapiens with 10 samples.

Results

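The replication-dependent histone genes were taken as the protein-coding symbols H1-1 to H1-6 and the numbered H2AC, H2BC, H3C and H4C symbols of the GENCODE release 44 annotation on GRCh37 (hg19). This rule found 64 genes of 20136 protein-coding symbols: 6 for the linker histone H1, 16 each for H2A and H2B, and 13 each for H3 and H4. Of these, 51 lay in the 6p22 cluster on chromosome 6, 10 in the 1q21 cluster on chromosome 1, and 3 elsewhere. The study made 10 libraries of HCT116, an established human colorectal carcinoma line grown without any stated treatment. They comprise 1 ChIP-seq library per antibody and an input DNA library. Peak lists of 5 of them were analysed: KAP1 (TRIM28, a chromatin-bound co-regulator), Larp7, Hexim1, Cdk9 and total RNA polymerase II (Pol II). The design concerns which of these factors meet at human genes, so the question here was which of them had peaks at histone genes. The labels give the line's cell type as endothelial. Pol II peaks lay at 6 of 8 epithelial and 2 of 7 endothelial marker promoters, where 70.5% of all coding promoters had one, so these counts do little to check the label. Strong epithelial peaks were at CDX2 (fold 100.2), CDH1 (97.6) and KRT8 and KRT18, which share 1 peak (77.7), and weak ones at EPCAM (5.18) and CLDN4 (3.97). Of the endothelial genes, ESAM had a strong peak (92.45) and CLDN5 a weaker one (8.68). With 1 library per antibody no value has a replicate check and no test was made.

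Replication-dependent histone genes supply the nucleosome proteins (H2A, H2B, H3 and H4) and the linker histone H1 while DNA is copied in S phase. They are short and mostly without introns, stand in clusters of many copies, and depend on the coactivator NPAT. Their mRNAs end in a conserved stem-loop bound by SLBP instead of a poly(A) tail. Larp7 and Hexim1 are proteins of the 7SK ribonucleoprotein, a particle that keeps P-TEFb in an inactive store. Cdk9 is the kinase subunit of P-TEFb, which releases paused Pol II.

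The sequences below show what the promoters hold. The first is the whole interval between the starts of H2BC11 and H2AC11, the divergent H2A-H2B pair with the highest Pol II fold. It lies at chr6:27100575-27100821 on GRCh37 and is written on the plus strand. The next 4 are the 150 bases before the start of a member for each of H1, H2A, H2B and H3 that had a Pol II peak and no KAP1 peak: H1-2 (chr6:26056699-26056848, minus strand), H2AC12 (chr6:27114735-27114884, plus), H2BC5 (chr6:26158200-26158349, plus) and H3C1 (chr6:26020529-26020678, plus). The last, H4C9 (chr6:27106911-27107060, plus), was chosen after its values were seen, as the H4 gene with a KAP1 peak. Capitals mark matches, on either strand, to the TATA box (TATAAA), the CCAAT box (CCAAT), the octamer (ATTTGCAT) and the H1 box (AAACACA). Overlapping matches run together.

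H2BC11-H2AC11: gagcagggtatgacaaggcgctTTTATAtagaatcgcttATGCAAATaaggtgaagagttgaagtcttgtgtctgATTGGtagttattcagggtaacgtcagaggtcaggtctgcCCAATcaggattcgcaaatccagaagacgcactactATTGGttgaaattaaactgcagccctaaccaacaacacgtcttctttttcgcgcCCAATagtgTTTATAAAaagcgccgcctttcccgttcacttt
H1-2: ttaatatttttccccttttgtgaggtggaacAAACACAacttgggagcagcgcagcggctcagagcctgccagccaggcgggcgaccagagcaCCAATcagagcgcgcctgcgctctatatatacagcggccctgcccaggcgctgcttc
H2AC12: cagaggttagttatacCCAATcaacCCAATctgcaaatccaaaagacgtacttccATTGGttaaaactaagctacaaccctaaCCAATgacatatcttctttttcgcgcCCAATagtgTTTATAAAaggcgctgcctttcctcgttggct
H2BC5: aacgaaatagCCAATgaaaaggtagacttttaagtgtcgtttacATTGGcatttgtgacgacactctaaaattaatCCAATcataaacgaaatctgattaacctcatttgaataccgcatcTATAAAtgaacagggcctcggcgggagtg
H3C1: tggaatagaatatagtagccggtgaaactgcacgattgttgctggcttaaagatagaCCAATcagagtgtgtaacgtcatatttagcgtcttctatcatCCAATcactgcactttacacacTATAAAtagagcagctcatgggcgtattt
H4C9: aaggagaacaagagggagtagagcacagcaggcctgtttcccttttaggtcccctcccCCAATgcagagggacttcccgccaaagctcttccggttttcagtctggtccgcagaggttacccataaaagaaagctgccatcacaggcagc

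The classes differed in these letters. In the window of 250 bases before to 50 bases after the canonical start, TATAAA on either strand was found in 43 of 64 histone genes (67.2%), against 9.63% of 19855 coding genes searched in the same way. CCAAT was found in 55 of 64 histone genes (85.9%), against 36.0% of coding genes. All 51 genes for H1, H2A, H2B and H3 held CCAAT, and 4 of 13 H4 genes did. The octamer was found in 12 of 16 H2A and 12 of 16 H2B genes, in no other histone class, and in 1.58% of coding genes. Divergent H2A-H2B pairs had at most 250 bases between their starts, so a match there counted for both genes. The H2A and H2B counts are therefore not independent. In the printed H2BC11-H2AC11 interval the only octamer lies on the H2BC11 side. AAACACA was found in 6 of 6 H1 genes and in 9 histone genes in all, against 4.14% of coding genes. A match describes letters in a window and says nothing of binding.

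A 16-base stem-loop was found after the stop codon of all 64 members, and no share over other coding genes was taken. It came in 10 forms, and the 4 most common are printed with the stem in capitals and the loop in lower case. The first 2 of these forms belonged to 38 members outside H4 and to 8 H4 genes, and the next 2 to 8 members outside H4 and to 4 H4 genes. None of the 10 forms was shared between H4 and another class. The remaining 6 forms belonged to 1 member each, H4C13, H2BC10, H3C6, H2AC11, H2AC20 and H2AC15.

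Stem-loop of 38 genes for H1, H2A, H2B and H3: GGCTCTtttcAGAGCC
Stem-loop of 8 H4 genes: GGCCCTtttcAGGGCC
Stem-loop of 8 genes for H1, H2A, H2B and H3: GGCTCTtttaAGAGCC
Stem-loop of 4 H4 genes: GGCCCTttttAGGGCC

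Pol II was as frequent at histone promoters as at coding promoters in general, and KAP1 was less frequent. A promoter was the stretch reaching 1 kb to either side of a gene's annotated 5′ end, and a factor was counted there if any of its peaks touched the stretch by 1 bp or more. A promoter without a called peak is not thereby shown to lack the factor. Pol II had a peak at 45 of 64 histone promoters (70.3%, 95% Clopper-Pearson interval 57.6 to 81.1), against 70.5% of coding promoters. KAP1 had a peak at 27 histone promoters (42.2%, 29.9 to 55.2), against 64.6% of coding promoters. Larp7 was at 41 (64.1%, 51.1 to 75.7), against 75.1%. Hexim1 was at 51 (79.7%, 67.8 to 88.7), against 78.7%. Cdk9 was at 37 (57.8%, 44.8 to 70.1), against 69.1%. All 5 factors met at 19 histone promoters (29.7%), against 59.7% of coding promoters, and 8 histone promoters (12.5%) had none, against 18.3%. The intervals cover counting error only, and neighbouring histone genes share peaks, so these promoters are not independent. The order depended on the choice of peaks and window for Pol II, Cdk9 and Hexim1. For Pol II, the share was 62.5% with the 20000 peaks of highest −log10 p, against 53.9% of coding promoters. From the start of any transcript Pol II was at 70.3%, against 77.2%. For Cdk9, with peaks whose −log10 q reached 5 it was at 21.9% of histone promoters, against 14.9% of coding promoters, and with 2 kb on each side at 75.0%, against 73.4%. Hexim1 was at 62.5% of histone promoters with the same −log10 q, against 67.5% of coding promoters, at 34.4% with the 20000 strongest peaks, against 52.9%, and at 70.3% with 500 bp on each side, against 75.1%. From the start of any transcript it was at 79.7%, against 84.6%.

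**Figure D1:**
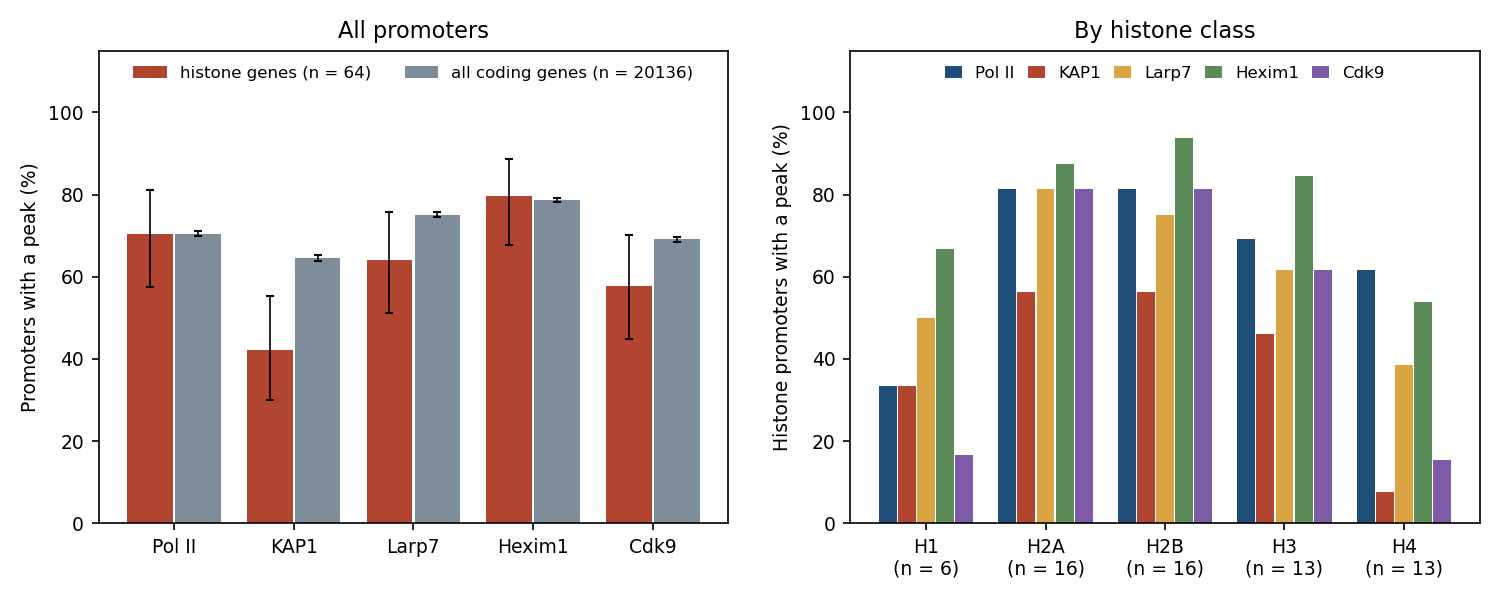
Left, the share of promoters (%) with a peak of each factor for the 64 histone genes (red) and all 20136 coding genes (grey), with 95% Clopper-Pearson intervals. Right, the same share within each histone class; KAP1 was at 1 of 13 H4 promoters and Cdk9 at 2, while Pol II was at 8.

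Where Pol II was present, the other 4 factors were each less frequent at histone promoters. Among the 45 histone promoters with Pol II, KAP1 was at 22 (48.9%, 33.7 to 64.2), against 87.2% of all Pol II promoters, a difference of −38.3 points. Larp7 was at 31 (68.9%), against 94.9%. Cdk9 was at 32 (71.1%), against 91% of all Pol II promoters. Hexim1 was at 41 (91.1%), against 98.4%, which was the smallest of the 4 differences. All 5 factors met at 19 of the 45, against 84.7% of all Pol II promoters. The 19 histone promoters without Pol II went the other way for KAP1, with 5 (26.3%), against 10.4% of all promoters without Pol II. Larp7 and Hexim1 were each at 10 of these 19 (52.6%), against 27.6% and 31.6% of all promoters without Pol II, and Cdk9 was at 5, against 16.8%.

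Among promoters, the Pol II peaks of histone genes ranked high and those of the other factors ranked low. Each peak carries the authors' deposited fold, a ratio of signal to background, which is compared here only within a list. Pol II fold had a median of 74.8 over the 45 histone promoters, against 39.4 over all Pol II promoters, and the median percentile of the histone promoters among all Pol II promoters was 78.4. In the KAP1 list the median fold was 4.35 over 27 histone promoters, against 4.83 over all KAP1 promoters, at a median percentile of 30.5. Larp7 had medians of 4.16 and 4.80 over histone and all coding promoters, Hexim1 of 5.69 and 6.91, and Cdk9 of 4.12 and 4.57. Set against every peak of a list, most of which lie outside promoters, the distinct peaks over histone promoters ranked higher. Their median fold was at percentile 88.6 of the Pol II list, 87.9 of the Hexim1 list, 73.6 of the Larp7 list, 70.8 of the Cdk9 list and 51.7 of the KAP1 list.

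**Figure D2:**
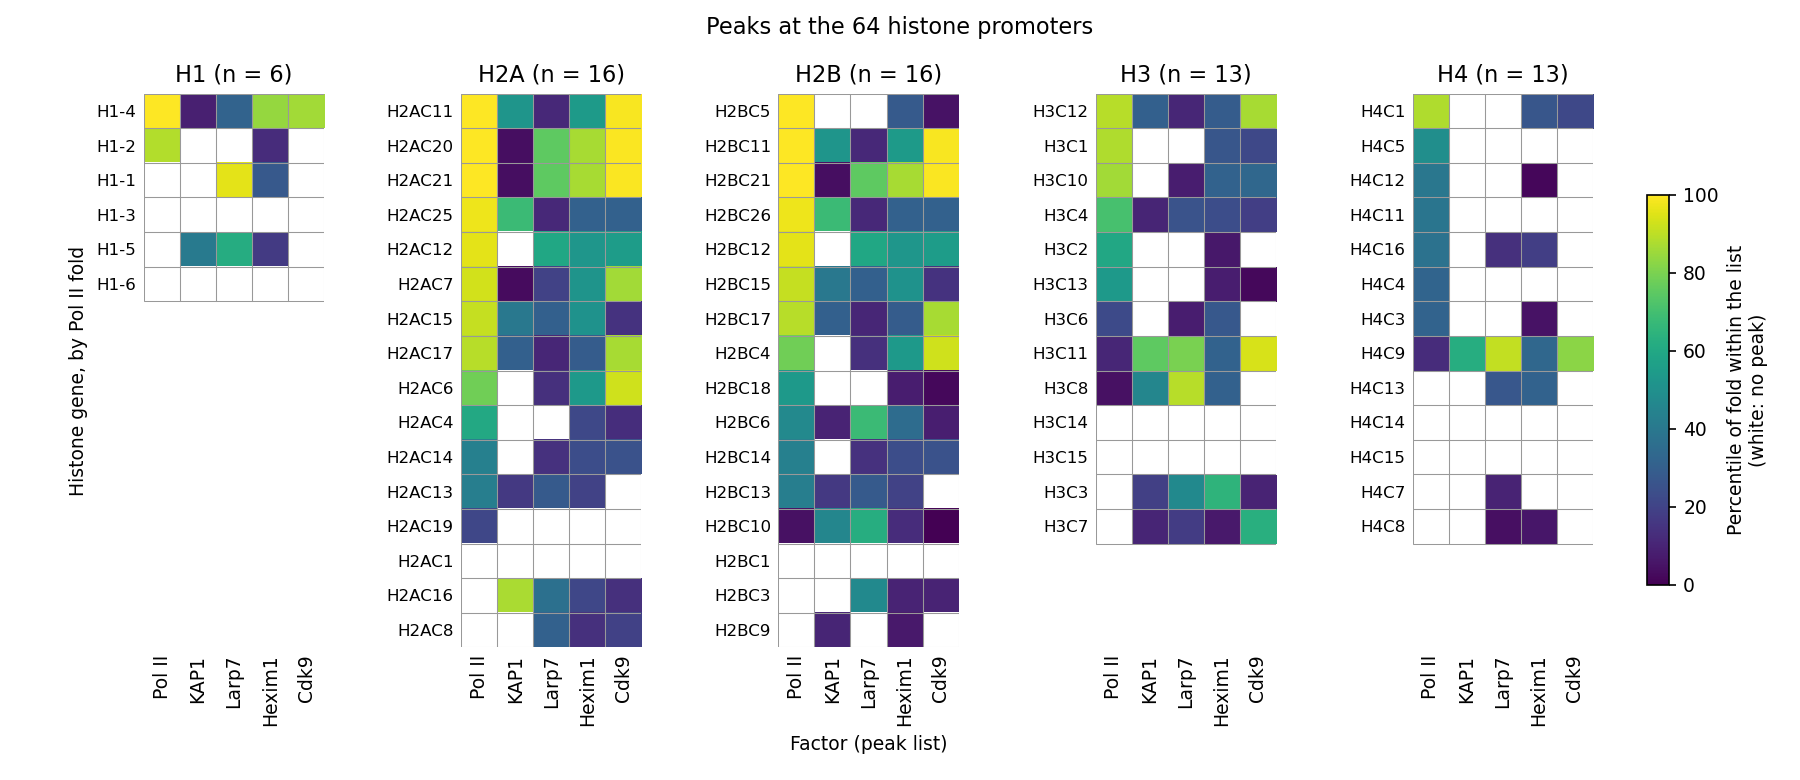
Each row is a histone gene, grouped by class and ordered by Pol II fold, and each column is a factor. Colour gives the percentile of the promoter's strongest peak by fold among all coding promoters with a peak in the same list (0 to 100), and white means no peak. The highest Pol II percentiles were in H2A, H2B and H1 genes, and the H4 columns for KAP1 and Cdk9 are nearly empty.

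Only 2 of the 6 genes for the linker histone H1 had Pol II. H1-4 (chr6:26156557-26157343, plus strand) had a Pol II fold of 175, where the highest of any coding promoter was 176, and all 5 factors were there, with a KAP1 fold of 3.67. H1-2 had a Pol II fold of 94.05 and a Hexim1 fold of 4.37, with no KAP1, Larp7 or Cdk9 peak. H1-5 had no Pol II peak but had KAP1 (fold 4.62), Larp7 (5.11) and Hexim1 (4.80). At H1-1 the peaks were of Larp7 (6.71) and Hexim1 (5.67) alone. H1-3 and H1-6, the testis form of H1, had no peak in any list.

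H2A genes were the most fully occupied class together with H2B. Pol II was at 13 of 16 H2A promoters, KAP1 at 9, Larp7 at 13, Hexim1 at 14 and Cdk9 at 13, and the median Pol II fold was 101.4. H2AC11 led with a Pol II fold of 165 and a KAP1 fold of 4.88. The neighbours H2AC20 and H2AC21 shared a Pol II peak of fold 164 and a KAP1 peak of fold 3.42. That KAP1 peak stood at percentile 3.89 among KAP1 promoters, although the Pol II peak was among the strongest. The 5 H2A promoters with Pol II and no KAP1 were H2AC12 (Pol II fold 117.5), H2AC6 (74.8), H2AC4 (51.3), H2AC14 (32.2) and H2AC19 (10.0). H2AC19 had no peak of any other factor, and its Pol II peak lay upstream and did not reach its transcript. H2AC16 had the reverse pattern, with no Pol II peak and the highest KAP1 fold of the 64 genes (6.12). H2AC8 had Larp7, Hexim1 and Cdk9 peaks without Pol II or KAP1.

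H2B genes followed H2A closely, and 10 of the 16 stand in divergent pairs with an H2A gene. The part of these pairs in the likeness was not tested. Pol II was at 13 of 16 H2B promoters, KAP1 at 9, Larp7 at 12, Hexim1 at 15 and Cdk9 at 13, and the median Pol II fold was 96.2. These folds are of the strongest peak in the window, which in several cases lay on a neighbouring gene. The strongest Pol II peak on an H2B transcript had its summit downstream of the start in 5 of 11 genes. For H2A this was 12 of 12. H2BC6 was counted with all 5 factors at its annotated 5′ end. None of those peaks reached its canonical transcript, which starts 11702 bp further on. With canonical starts for all genes, Pol II was at 44 histone promoters, KAP1 at 25 and all 5 factors at 17. The shares of all coding promoters were then 73.5%, 67.8% and 63.0%. The 3 highest Pol II folds were those of H2BC5 (175), H2BC11 (165) and H2BC21 (164). The H2BC5 value belongs to the peak it shares with H1-4, whose summit lay at −1754 bp from the H2BC5 start, within H1-4. The summits for H2BC11 and H2BC21 lay at −405 and −1110 bp from their starts, within H2AC11 and H2AC21. The KAP1 peak over H1-4 (chr6:26156559-26156723) lay outside the H2BC5 window, so H2BC5 counts as lacking KAP1. The other H2B promoters with Pol II and no KAP1 were H2BC12 (117.5), H2BC4 (74.8), H2BC18 (43.8) and H2BC14 (32.2). The folds given for H2BC4, H2BC18 and H2BC14 belong to peaks over H2AC6, H3C13 and H2AC14. The Pol II peaks on their own transcripts had folds of 29.1, 13.7 and 18.7. H2BC9 had KAP1 (3.74) and Hexim1 (3.67) without Pol II, and H2BC3 had Larp7, Hexim1 and Cdk9 alone.

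By the strongest peak in the promoter window, Pol II was weaker at H3 genes than at H2A and H2B genes. It was at 9 of 13 promoters with a median fold of 50.8, and KAP1 was at 6, Larp7 at 8, Hexim1 at 11 and Cdk9 at 8. H3C12 had a Pol II fold of 96.2 from the peak that it shares with H2AC17 and H2BC17. The annotated 5′ end of H3C12 lies within H2AC17, and that peak did not reach its canonical transcript, which starts 2280 bp further on. H3C1 had a Pol II fold of 93.7 and H3C10 of 89.0, both without KAP1, as were H3C2 (50.8), H3C13 (43.8) and H3C6 (11.0). KAP1 without Pol II was found at H3C3 (KAP1 fold 4.03) and H3C7 (3.74). H3C11 and H3C8 had some of the weakest Pol II peaks (6.33 and 5.02) together with KAP1 folds of 5.55 and 4.72. The H3C8 values belong to peaks between H3C8 and H2BC10 that reached neither transcript. A further KAP1 peak of fold 3.49 lay on H3C8.

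H4 genes had Pol II at 8 of 13 promoters and the lowest shares of the 5 classes for each of the other factors. KAP1 was at 1 H4 promoter (7.69%, 0.195 to 36.0), Larp7 at 5, Hexim1 at 7 and Cdk9 at 2, and the median Pol II fold was 26.7. The H4 promoters with Pol II and no KAP1 were H4C1 (Pol II fold 93.7), H4C5 (38.8), H4C12 (28.1), H4C11 (27.4), H4C16 (25.9), H4C4 (20.3) and H4C3 (20.1). At H4C5, H4C11 and H4C4, Pol II was the only factor, and at H4C12 and H4C3 only Hexim1 joined it. The Pol II fold given for H4C1 belongs to a peak over the neighbouring H3C1, and the Pol II peak on H4C1 itself had a fold of 61.5. The Hexim1 and Cdk9 peaks counted at H4C1 were also shared with H3C1. H4C9 was the exception and had all 5 factors, with the lowest Pol II fold of the 8 (6.85) and a KAP1 fold of 5.14. Among Pol II promoters KAP1 was at 8 of 13 H2A, 8 of 13 H2B, 4 of 9 H3, 1 of 2 H1 and 1 of 8 H4 genes. The letters CCAAT, which 4 of 13 H4 genes held, were in 40 histone promoters with Pol II, 22 of them with KAP1, and were missing from 5, none of them with KAP1; those groups follow the classes, and the difference between them was not tested.

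Counting each peak once showed how often histone promoters shared peaks. How many windows a peak reaches also depends on how close the gene starts lie, and histone genes are clustered. The part of this spacing in the sharing was not tested. The 45 histone promoters with Pol II rested on 48 distinct Pol II peaks, 40 in 6p22, 5 in 1q21 and 3 elsewhere. Of these, 21 (43.8%) overlapped at least 2 histone promoters, against 13.4% of Pol II peaks at coding promoters that overlapped at least 2 coding promoters. The 27 promoters with KAP1 rested on 18 KAP1 peaks, 16 in 6p22, 1 in 1q21 and 1 elsewhere, and 8 of them (44.4%) overlapped at least 2 histone promoters, against 13.2%. Larp7 had 30 distinct peaks with 12 over at least 2 histone promoters (40.0%, against 12.8%), Hexim1 38 with 15 (39.5%, against 13.2%) and Cdk9 26 with 11 (42.3%, against 12.6%). Of the 48 Pol II peaks, 13 (27.1%, 15.3 to 41.9) were overlapped by a KAP1 peak, against 80.5% of Pol II peaks at coding promoters. Larp7 overlapped 25 (52.1%, against 90.8%), Cdk9 24 (50.0%, against 84.9%) and Hexim1 38 (79.2%, against 96.1%). Counted per peak, the share of KAP1 was thus also below that of coding promoters.

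The 5 widest Pol II peaks each reached more than 1 histone promoter. The widest ran over H1-4 and H2BC5 (chr6:26156342-26159295, 2954 bp, fold 175). The next covered H2AC17 and H2BC17 and touched the window at the annotated 5′ end of H3C12 (chr6:27859796-27862345, 2550 bp, fold 96.2). It was followed by that over H2AC20, H2AC21 and part of the H2BC21 transcript (48.1%) in 1q21 (chr1:149857164-149859598, 2435 bp, fold 164). The other two lay over H2AC25 and H2BC26 (chr1:228644801-228647171, 2371 bp, fold 127.5) and over H2BC12 and H2AC12 (chr6:27113755-27115964, 2210 bp, fold 117.5). The 48 Pol II peaks had a median width of 628 bp, against 287 bp over the whole list. The 18 KAP1 peaks were narrow, with a median of 224.5 bp, against 513 bp over the whole list, and 3 of them (16.7%) reached a −log10 q of 5, against 14.0% of all KAP1 peaks. That threshold was reached by 91.7% of the Pol II, 73.7% of the Hexim1, 33.3% of the Larp7 and 30.8% of the Cdk9 peaks at histone promoters, against 75.4%, 20.0%, 18.5% and 4.42% of those whole lists. Median widths of the Larp7, Hexim1 and Cdk9 peaks were 845.5, 1035.5 and 416 bp at histone promoters, against 471, 453 and 427 bp over those lists. Most peaks of a list lie outside promoters, so the whole-list widths are not those of other promoters. On canonical transcripts, the strongest Larp7 peak had a median width of 976 bp in histone genes, against 1188 bp in other coding genes. Hexim1 peaks there measured 1442 bp, against 1437 bp, and Pol II peaks 957.5 bp, against 810 bp. Cdk9 peaks measured 598 bp, against 965 bp, and KAP1 peaks 227 bp, against 866 bp.

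Divergent pairs of H2A and H2B genes, with their starts 169 to 250 bases apart (median 237), held 20 of the 32 H2A and H2B genes. At this spacing the 1 kb windows of a pair overlap over most of their length, so most peaks near a pair count for both genes. At 9 of the 10 pairs a single Pol II peak reached both windows, and at all 9 a Pol II peak covered bases between the starts. A shared peak need not lie over both genes. H2BC4 and H2AC6 each had their own Pol II peak, with folds of 29.1 and 74.8. KAP1 had a shared peak at 6 pairs, but covered bases between the starts at only 1, H2AC17 and H2BC17. Hexim1 shared a peak at 9 pairs and lay between the starts at 9, Larp7 at 9 and 5, and Cdk9 at 8 and 4. In the pair printed above, the Pol II peak (chr6:27100066-27101916) ran across the whole interval, and the KAP1 peak (chr6:27100876-27101759) began 54 bp past the H2AC11 start and left all of the printed bases free. The H2AC25 and H2BC26 pair outside the clusters was similar, with a Pol II fold of 127.5 and its KAP1 peak (fold 5.30, chr1:228645178-228645534) over H2AC25 only. H2BC12 with H2AC12, H2BC4 with H2AC6, and H2AC14 with H2BC14 were the pairs with Pol II and no KAP1. Testis-expressed H2AC1 and H2BC1 had no peak in any list.

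KAP1 was also less frequent when histone promoters were set beside promoters of similar Pol II fold. All 14198 Pol II promoters were divided into quintiles of Pol II fold. In the highest quintile (fold 77.4 to 176), KAP1 was at 14 of 21 histone promoters (66.7%, 43.0 to 85.4), against 97.5% of all promoters there. In the fourth it was at 1 of 4, against 94.8%, in the third at 3 of 9, against 89.7%, and in the second at none of 7, against 76.4%. The lowest quintile ran the other way, with KAP1 at 4 of 4 histone promoters (H4C9, H3C11, H3C8 and H2BC10), against 77.7%. H3C8 and H2BC10 were placed there by 1 shared Pol II peak between the genes, which reached neither transcript, and they also shared a KAP1 peak. Of the 7 in the second quintile, 5 were H4 genes. With all Pol II promoters weighted to the quintiles of the histone promoters, KAP1 was at 48.9% of histone promoters, against 90.7%, a difference of −41.8 points. The same difference was −27.7 points for Larp7, −22.6 for Cdk9 and −8.01 for Hexim1.

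**Figure D3:**
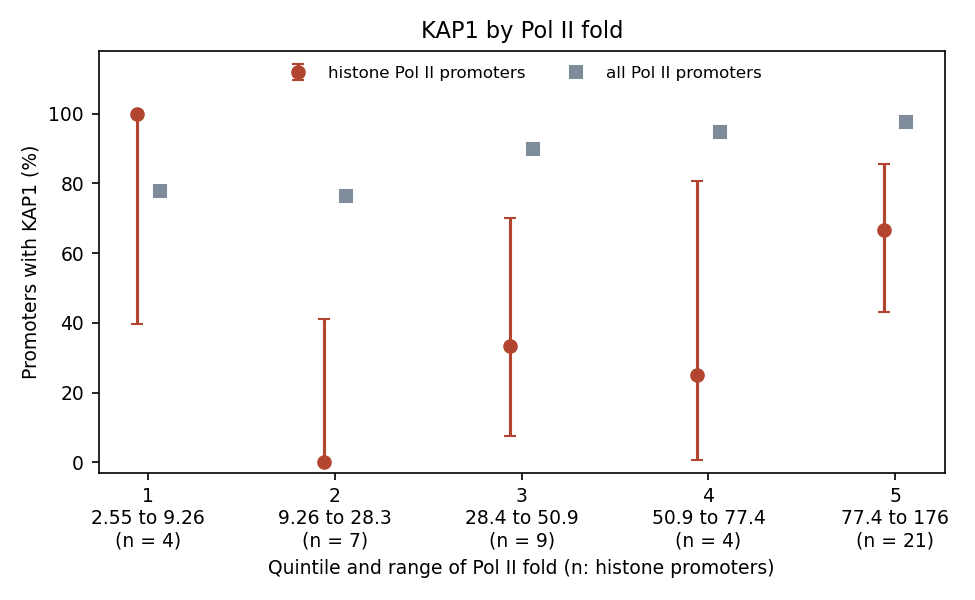
Share of Pol II promoters with KAP1 (%) in each quintile of Pol II fold, for histone promoters (red circles, 95% Clopper-Pearson intervals) and all Pol II promoters (grey squares). The fold range and the number of histone promoters stand under each quintile; histone promoters lie below all promoters in quintiles 2 to 5 and above in quintile 1, which holds 4.

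On most transcripts with a Pol II peak, it began before the start and ended past the stem-loop, and most KAP1 peaks on a transcript began after the start. Positions were taken for the strongest peak that overlapped a member's canonical transcript, which left out promoter peaks that missed it, such as the KAP1 peaks at H2BC6 and H2BC10. Over 40 members, the Pol II peak began at a median of −113 bp and ended at +850 bp from the start, began upstream in 36, and covered a median of 100% of the transcript. Its summit had a median position of +132 bp, against +74 bp in 12244 other coding genes, although the summit of a shared peak can lie in the neighbouring gene. The Pol II peak ended past the stem-loop in 29 of 40 members. It covered 35.5% of the transcript of H3C11 and 46.6% of that of H2BC13, which were among those it did not fill. Over 18 members with a KAP1 peak on the transcript, this peak ran from a median of +49.5 to +325 bp. It began downstream of the start in 14 of 18 (77.8%), against 21.8% of 11155 other coding genes, and ended past the stem-loop in 4. In H2AC17 and H2BC17 it began upstream, at −657 and −489 bp, and in H3C11 it reached +1071 bp. Cdk9 peaks began downstream in 15 of 27 members, against 15.2% of other coding genes, Larp7 in 11 of 33, against 10.8%, and Hexim1 in 9 of 44, against 7.71%. The KAP1, Cdk9 and Larp7 peaks were narrower here than on other coding genes (medians 227, 598 and 976 bp, against 866, 965 and 1188 bp). Peak middles lay at medians of +208.5 bp for KAP1, +151 for Cdk9, +160 for Larp7 and +142 for Hexim1. In other coding genes these medians were +178, +152, +141 and +117 bp. The part of peak width in where peaks began was not tested. Histone coding sequences resemble one another, with a median identity of 89.2% to the nearest other member (62.4 to 100.0). Identity was 88.5% at the median in the 18 members with KAP1 on the transcript and 89.5% in the 46 without. How reads that match several places were handled is not given in the sources used here, and the part of this in the positions was not tested.

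**Figure D4:**
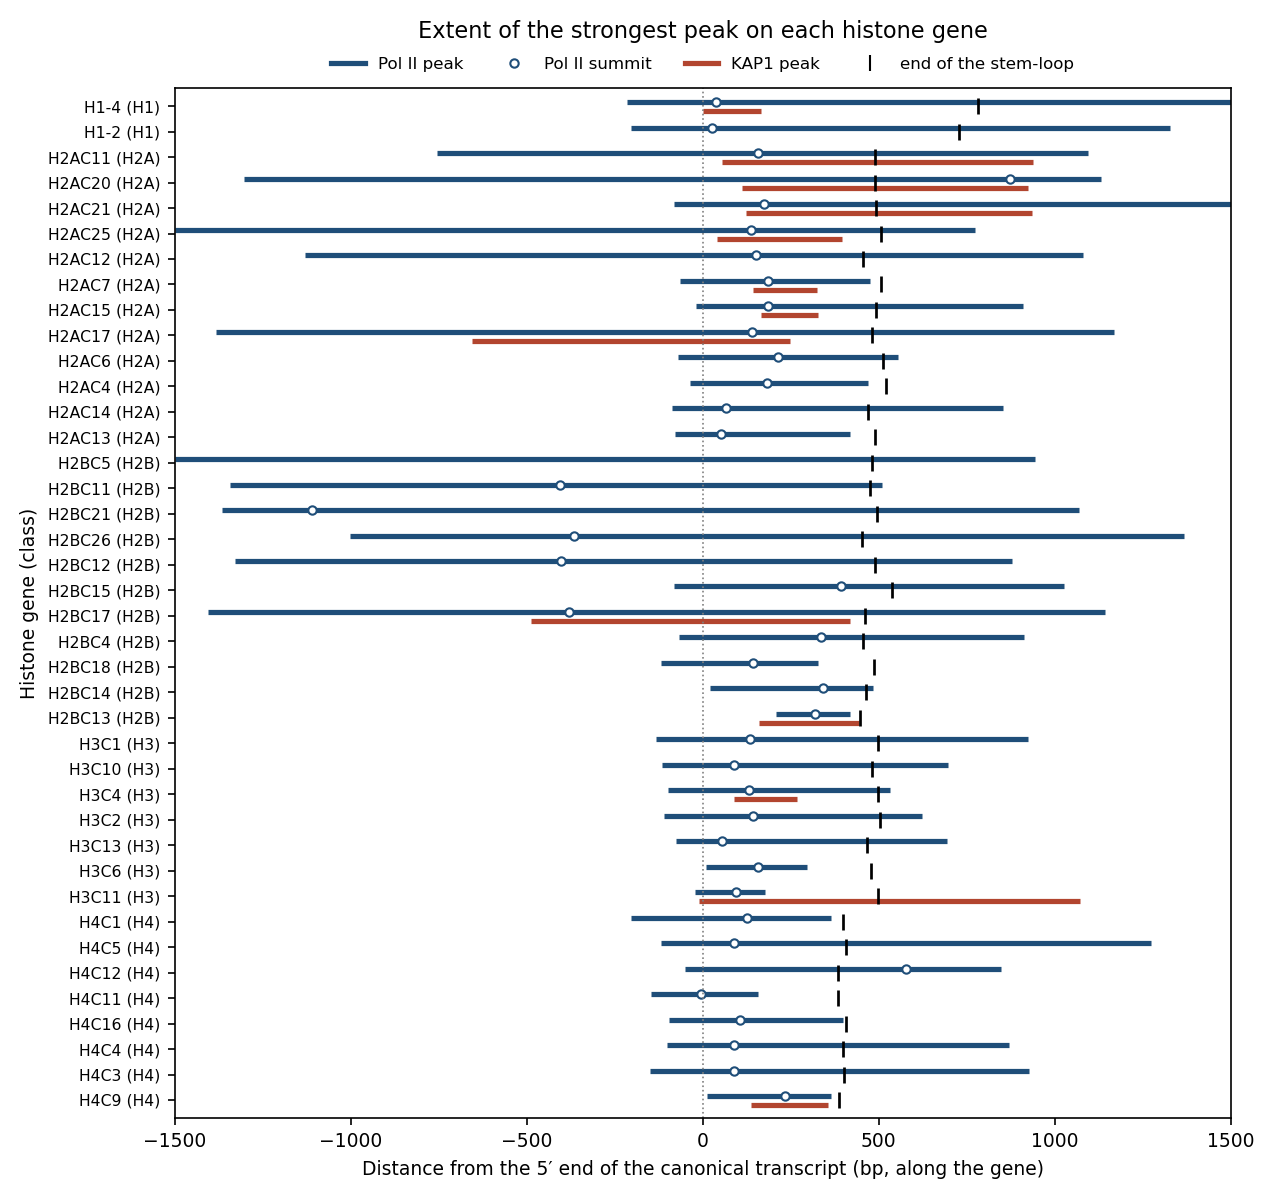
Extent of the strongest Pol II peak (blue, summit as a white circle) and KAP1 peak (red) on the 40 histone genes with Pol II on the canonical transcript, in bp along the gene from its 5′ end, cut at 1500 bp on each side; black ticks mark the end of the stem-loop. Pol II peaks cross the start in 36 of 40 genes, and most KAP1 peaks begin after it.

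How the 1q21 cluster compared with 6p22 depended on near-identical copies, which make up part of 1q21. In 1q21 Pol II was at 6 of 10 promoters, KAP1, Larp7 and all 5 factors at 3, and Hexim1 and Cdk9 at 5. In 6p22 Pol II was at 36 of 51, KAP1 at 22, Larp7 at 35, Hexim1 at 43, Cdk9 at 30 and all 5 factors at 14. The 3 promoters with all factors in 1q21 were H2BC21, H2AC20 and H2AC21, on 1 peak of each factor at all 3. H4C14 and H4C15 have identical promoter windows, and those of H3C14 and H3C15 are 99.6% identical. None of these 4 genes had a peak in any list, and whether reads were lost there to multiple matches was not tested. Copies were sought among the members only, so a likeness to a gene outside the rule would be missed. All 4 of these genes lie in 1q21. Without them Pol II was at 6 of 6 promoters of 1q21, KAP1 and Larp7 at 3 (50.0%), and Hexim1 and Cdk9 at 5 (83.3%), against 70.6%, 43.1%, 68.6%, 84.3% and 58.8% for these factors in 6p22. The share was then higher in 1q21 for Pol II, KAP1 and Cdk9, whereas with the copies each of the 5 factors was at a smaller share in 1q21. The 6 promoters of 1q21 with Pol II include H2AC19, whose Pol II peak did not reach its transcript. Over all members without the copies, Pol II was at 45 of 60 promoters (75.0%) and KAP1 at 27 (45.0%). Outside both clusters H4C16 on chromosome 12 had Pol II (fold 25.9), Larp7 (3.60) and Hexim1 (4.94) without KAP1 or Cdk9.

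Other coding genes in the same stretch of chromosome 6 and other short genes give a scale for these shares. The 6p22 genes span 2.138 Mb, in which KAP1 peaks covered 0.960% of the bases and Pol II peaks 2.57%. Of 52 KAP1 peaks there, 16 lay at histone promoters, 4 at other coding promoters only and 32 elsewhere. Among 20 other coding genes in the span, Pol II was at 12, and KAP1 was at 5 of those 12 (41.7%, 15.2 to 72.3). One of these genes, ENSG00000282988, was counted on peaks of H2AC7, and without it KAP1 was at 4 of 11 (36.4%, 10.9 to 69.2). That omission was chosen after seeing the data. Among 382 other coding genes with 1 coding exon and a transcript of at most 1000 bp, Pol II was at 64, and KAP1 at 50 of those 64 (78.1%, 66.0 to 87.5). The share of KAP1 at histone Pol II promoters was 48.9%, within the interval of the neighbours and below that of other short genes. Pol II fold differed between these sets, with a median of 74.8 at histone promoters, against 10.3 at the neighbours and 15.2 at the short genes, and its part in the shares was not tested here.

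The replication-independent histone genes, most of which are not tied to S phase, had KAP1 at a share near that of all Pol II promoters. Of 16 such genes, 12 had Pol II, and all 12 also had KAP1, Larp7, Hexim1 and Cdk9, where 87.2% of all Pol II promoters had KAP1 and 84.7% all 5 factors. H2AX had the highest KAP1 fold (7.51), followed by H3-3A (6.04), the gene of the replacement histone H3.3, and MACROH2A1 (5.92). H3-5, H2BK1, H2AB1 and H1-8 had no Pol II peak. Genes that act on histone gene transcription had Pol II at 12 of 13 promoters, with KAP1 at 10 of the 12 (83.3%), again close to the 87.2% of all Pol II promoters. NPAT itself had a Pol II fold of 11.7 and no KAP1 or Cdk9 peak, CDK2 had Pol II (9.37) without KAP1, and GON4L had KAP1 (3.90) without Pol II. The highest KAP1 folds in this list were at E2F1 (6.18), CCNE1 (6.03), which encodes cyclin E, and YY1 (5.73). In the list for histone mRNA 3′ end processing and decay, Pol II was at 21 of 22 promoters and KAP1 at 19 (90.5% of the 21). LSM11 (KAP1 fold 7.80), a protein of the U7 particle that cuts histone pre-mRNA, SLBP (7.06) and UPF1 (6.57) led, CSTF1 and CSTF2 lacked KAP1, and CSTF2T had no peak. SLBP, whose protein binds the stem-loops printed above, also had a Pol II fold of 168.7. All 20 histone chaperone genes had Pol II, and 17 (85.0%) had KAP1. UBN1 (7.56), HIRA (6.86) and CHAF1B (6.61) were highest in KAP1 fold, and ATRX, SUPT16H and SUPT6H had none.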

How the data were processed

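The files are MACS2 peak lists of 5 libraries of HCT116 chromatin. Bowtie 1.1, hg19 and MACS2 (no version) are named in the submitters' processing notes. Not given in the sources used here are the library used as control, the calling settings and the read depth. How duplicates and reads matching several places were treated is not given either. The Pol II list is in narrow and the others are in broad layout, each from 1 library. The deposited fold is a ratio, made by the authors, of a peak's signal to background, the deposited −log10 p-value and −log10 q-value columns were used to filter peaks, and the summit of a Pol II peak is a deposited offset. The deposited score was not used. The lists held 92939 Pol II, 61312 KAP1, 184243 Larp7, 229679 Hexim1 and 120115 Cdk9 peaks, and the depth behind them is unknown.

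Genes came from GENCODE release 44 on GRCh37, with 1-based coordinates. For each promoter the peak of highest fold was used, and its percentile was taken among coding promoters with a peak in the same list. Python 3.11.15, pandas 2.3.3, NumPy 2.4.6, SciPy 1.17.1, edlib 1.3.9.post1 and matplotlib 3.10.9 were used, and the counting was tested on simulated data. Near-identical copies share at least 95% of the 1 kb window on each side of the start. The stem-loop was sought within 200 bases after the stop codon, and divergent pairs had starts at most 500 bp apart. A RefSeq table holds 69 symbols of this family. Of these, 5 (H2AC18, H2BC7, H2BC8, H4C2 and H4C6) are not under such a symbol in the annotation and were not analysed here, except for 2 older symbols in an alternative. The members and lists were chosen with earlier results of these data known. Named genes were, per class, the 3 of highest Pol II fold, all with Pol II or KAP1 alone of those 2, all without peaks, those under the 5 widest Pol II peaks, the copies, those outside the clusters, and in the lists those lacking Pol II or KAP1 and the 3 of highest KAP1 fold. Other genes were named after their values were seen. The alternatives were a −log10 q minimum of 5, lists limited to the 20000 peaks with the highest −log10 p, windows of 500 bp and 2 kb, the start of any transcript, the peak's middle in the window, the copies left out, the canonical start, and 2 genes with older symbols added. The promoter sequence of 1 member is not reported here.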

Additional observations from a re-analysis of the deposited data

How the results depend on the processing

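With a −log10 q minimum of 5, KAP1 was at 4 histone promoters (H2AC25, H2BC26, H2AC16 and H3C11) on 3 distinct peaks, Larp7 at 14 on 10, Cdk9 at 14 on 8, and all 5 factors at 1. These are 6.25% for KAP1, 21.9% for Larp7 and 21.9% for Cdk9, against 24.4%, 47.2% and 14.9% of all coding promoters, and 9.16% of those had all 5. With each list limited to the 20000 peaks with the highest −log10 p, KAP1 was at 9 promoters on 6 peaks, Larp7 at 9 on 7, Hexim1 at 22 on 13, Cdk9 at 17 on 10, and all 5 factors at 0. In shares, KAP1 was at 14.1%, Larp7 at 14.1%, Hexim1 at 34.4% and Cdk9 at 26.6%, against 41.4%, 30.6%, 52.9% and 40.4% of all coding promoters, of which 16.1% had all 5. The KAP1 share of histone Pol II promoters was then 10.0%, against 64.1% of all Pol II promoters, a difference of −54.1 points. Over the other alternatives this difference lay between −28.8 and −42.7 points. The remaining counts stayed within 1.5 times their value, and the median Pol II percentile stayed between 70.7 and 83.3. The covered share of gene length was not computed for other windows. The canonical start and the 2 genes of older symbols were alternatives chosen after seeing the data. The depth of the libraries is unknown, so a promoter without a called KAP1 peak is not shown to lack KAP1. No paired analysis was possible because each antibody had 1 library.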
